A study of Homo sapiens with 12 samples.

Results

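The transcripts of CTNNB1, which encodes β-catenin, and of 9 genes whose products hold β-catenin in check or act with it were followed across the 12 arrays of a study of β-catenin coactivators. The set was JUP, APC, AXIN1, GSK3B, CSNK1A1, BTRC, BCL9, BCL9L, and PYGO2 beside CTNNB1, 10 genes of the 17240 that the array names through a RefSeq accession. The members were every probe whose accession maps to one of these genes, which gave 15 probes of 41000 on the array. Among these, 3 probes, 1 each for CTNNB1, APC, and GSK3B, are printed as 10 spots on every array, so the 15 probes occupy 42 spots. RNA came from Ls174T, a colorectal carcinoma line whose β-catenin carries a point mutation that stabilizes the protein and keeps the Wnt pathway on, and from HEK293T, a human embryonic kidney line whose pathway is intact and answers to added Wnt. All cells had been transfected with siRNA pools at 15 nM for 72 h, the controls with a non-targeting pool. In Ls174T, si-b-catenin RNA was hybridized directly against si-control RNA on 2 arrays with the dyes exchanged, and 1 array each held si-control RNA or RNA of cells given si-MLLT10, si-BRG1, or si-P300 against universal human reference RNA. In HEK293T, all 6 arrays carried the same reference: si-control cells given control conditioned medium (CM) or Wnt3A conditioned medium for 9 h, and cells depleted of MLLT10/AF10, DOT1L, BRG1, or p300 and given Wnt3A for 9 h. Each condition had 1 RNA sample, so no difference here has a replicate check and none carries a p-value.

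In the resting state of the Wnt pathway, a cytoplasmic destruction complex built on the scaffolds AXIN1 and APC presents β-catenin to the kinases CSNK1A1 and GSK3B, and the phosphorylated protein is marked by the ubiquitin ligase subunit BTRC for degradation. A Wnt signal halts this, β-catenin accumulates, enters the nucleus, and joins TCF/LEF factors, where BCL9 or BCL9L links it to PYGO2 and to transcription. In the intestine this switch maintains crypt progenitors, and most colorectal cancers carry a lesion in APC or β-catenin. β-catenin also ties cadherins to the cytoskeleton at cell junctions, a role it shares with its close relative plakoglobin, the product of JUP. These events act on the protein, and the arrays measured only RNA.

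A level is given as the log2 ratio of sample over reference RNA, and a change as the difference between 2 such ratios, or for the β-catenin pair as the mean of the 2 direct ratios. A probe counted as well-measured if at least 1 channel exceeded 2 times its local background on each array compared. A change was called past 2-fold in Ls174T (1.00 on the log2 scale) and past 1.5-fold in HEK293T (0.58). The ± beside a value is the error that the image analysis program gives, carried through the difference; it covers the measurement on the arrays and not the spread between cultures. The 12 arrays lay on 5 slides and had 18104 to 31011 well-measured spots of 43376, with no saturated spot and a median program error of 0.21 to 0.23, and the β-catenin pair was the dimmest. Genes of the intestinal epithelium were higher on the Ls174T si-control array than on the HEK293T CM array for 10 of 10 listed, although CDX2 and MUC2 differed by only 0.44 each, and all 5 listed genes of the kidney line that were on the array were higher in HEK293T. Of 15 values for the targets of the other 4 siRNA pools, 14 lay below 0 in their own depletion, between −4.00 and −0.60, and 1 of the 3 DOT1L probes gave 0.17. The depletions were not alike in the 2 lines. EP300, which encodes p300, gave −0.60 and −1.31 in Ls174T, neither well above background in the depleted cells. In HEK293T it gave −2.35 and −2.98, of which the second was not well above background either. SMARCA4, which encodes BRG1, gave −2.53 to −2.24 in Ls174T and −4.00 to −3.95 in HEK293T.

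Depletion of β-catenin in Ls174T cells lowered CTNNB1 on both of its probes, which checks the label of that siRNA. On A_23_P29495 the ratio of si-b-catenin over si-control was −2.55 on the first array and −2.86 on the array with exchanged dyes, a mean of −2.71 ± 0.23 over 8 spots usable on both, whose SD was 0.02. On A_23_P29499, which has 1 spot, the ratios were −2.37 and −2.60, a mean of −2.49 ± 0.22. Both probes were low on both arrays, and the transcript stood at 15.3% and 17.8% of its control. Of 11 member probes for 8 genes tested in this comparison, these 2 were past 2-fold, beside 5.66% of the 16513 probes tested on the whole array.

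JUP moved the other way by less than the fold. Its ratio was 0.56 on the first array and 0.48 on the second, a mean of 0.52 ± 0.15, or 1.44-fold, and this was more than 2 times the program error. Such a value was not particular to JUP. Of the junction partners listed further below, 12 probes were tested here, with a median of 0.51 and 0 past 2-fold. The median over all probes was −0.015. The 2 arrays gave JUP signals of 11784 and 9125 in the depleted channel against 7974 and 6535 in the control channel, so it was among the bright members and higher with either dye. The other 8 member probes lay between −0.24 and 0.26. AXIN1 gave 0.22 and 0.23 on the 2 arrays, GSK3B 0.05 and −0.06, and the 3 probes of CSNK1A1 had means of −0.24, 0.06, and −0.11. BTRC on A_23_P35427 had a mean of −0.15 ± 0.19 and PYGO2 −0.18 ± 0.13. BCL9L gave 0.14 and 0.38, a mean of 0.26 ± 0.17. None of these 8 was beyond 2 times its program error, and 3 of them had opposite signs on the 2 arrays. The plot of the dye-swapped pair shows CTNNB1 alone on the far side of the threshold.

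**Figure D1:**
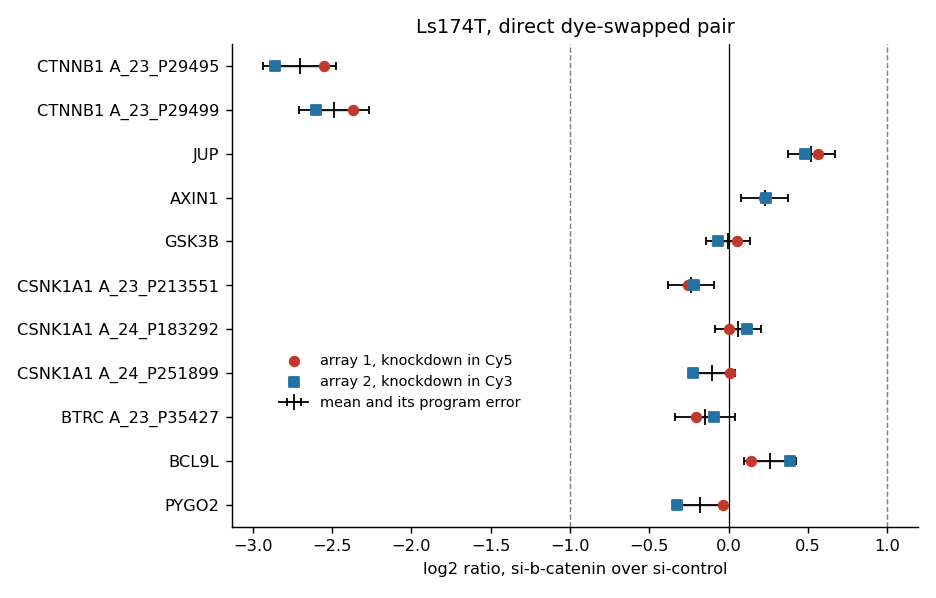
Log2 ratio of si-b-catenin over si-control RNA in Ls174T cells (x axis) for the 11 well-measured member probes (y axis), with circles for the first array, squares for the array with exchanged dyes, and black ticks with bars for the mean and its program error. The 2 CTNNB1 probes lie at −2.71 and −2.49, past the dashed 2-fold line, JUP lies at 0.52, and the other 8 probes lie between −0.24 and 0.26.

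CTNNB1 and JUP are relatives, and the sequence just upstream of each start is shown, the 250 bases before the RefSeq start site in GRCh38.p14. CTNNB1 was the target of the siRNA itself, so its fall above is not a measure of its promoter. Capitals mark CTTTG, the core letters of a TCF/LEF element, on either strand. CTNNB1 (chr3:41199255-41199504, plus strand) has none in this window, and 1 of 2 JUP windows (chr17:41785977-41786226, minus strand) has 1.
CTNNB1: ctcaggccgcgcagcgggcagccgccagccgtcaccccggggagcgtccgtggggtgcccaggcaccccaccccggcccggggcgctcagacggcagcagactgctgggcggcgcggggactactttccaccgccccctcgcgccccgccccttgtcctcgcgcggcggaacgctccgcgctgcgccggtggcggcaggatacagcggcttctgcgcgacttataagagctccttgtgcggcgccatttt
JUP: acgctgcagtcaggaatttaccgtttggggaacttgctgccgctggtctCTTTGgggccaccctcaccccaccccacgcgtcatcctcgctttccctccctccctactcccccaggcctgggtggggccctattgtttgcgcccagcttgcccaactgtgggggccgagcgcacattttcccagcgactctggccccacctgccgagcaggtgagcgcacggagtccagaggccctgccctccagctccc
Of 11 such windows for 8 of the 10 genes, this JUP window was the only one with CTTTG, which 42.1% of all 35116 windows hold, and none held CTTTGAT, which 2.26% of all windows hold. BTRC and BCL9L had no window. The letters are a description of these windows, and binding was not measured.

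The other 3 depletions in Ls174T cells left every tested member within 2-fold. These comparisons share the 1 si-control array, and 13 member probes for 9 genes were tested in each. No member was called after depletion of MLLT10/AF10 beside 1.75% of 25407 probes, none after BRG1 beside 5.21% of 25776, and none after p300 beside 5.76% of 26130. The 39 values ran from −0.24 to 0.54. Centring each array on its median moved the BRG1 values by −0.14 and the p300 values by −0.10, and those of every other comparison by 0.04 or less.

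CTNNB1 itself stayed close to its control in these cells. The level on A_23_P29495 was 0.58 in si-control cells, 0.61 with si-MLLT10, 0.80 with si-BRG1, and 0.86 with si-P300. The changes were therefore 0.03 ± 0.30, 0.23 ± 0.30, and 0.29 ± 0.30, none larger than its error. On A_23_P29499 the level was 2.08 with si-control, 2.14 with si-MLLT10, 2.04 with si-BRG1, and 2.19 with si-P300, which gave changes of 0.07, −0.04, and 0.12. The BRG1 and p300 arrays lay on a slide of their own, so that the higher values of the first probe on those 2 arrays and the slide cannot be told apart.

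JUP had levels of 0.87, 0.88, 1.02, and 0.83 on the same 4 arrays in that order, and its largest change was 0.15 ± 0.31 after BRG1 depletion. BCL9L, the BCL9 paralog that bridges β-catenin and PYGO2, had levels of 0.69, 0.76, 0.83, and 0.93, and its changes of 0.08, 0.15, and 0.24 were all below their errors. BTRC on A_23_P46819 gave the largest change in this group of comparisons, 0.54 ± 0.29 after p300 depletion, from a level of −0.17 to 0.37, while its other probe gave −0.08 ± 0.35 there. The 2 BTRC probes thus did not give the same change. GSK3B, measured over 10 spots, changed by −0.06, 0.04, and −0.24 ± 0.29, with an SD over spots of 0.04 to 0.08.

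BCL9, and APC in Ls174T, were near the limit of detection. The APC probe A_24_P918740 was well-measured on no array, and BCL9 only on the HEK293T CM array and 1 array of the β-catenin pair, so neither entered a comparison. The other APC probe, A_23_P70213, had 1 of 10 spots well-measured on the Ls174T si-control array, so its Ls174T changes of 0.11, 0.05, and 0.10 rest on 1 spot. On the Ls174T si-BRG1 and si-P300 arrays 7 and 9 of its spots were well-measured. All its used spots were marked well above background in the sample channel on the 4 Ls174T reference arrays. On the β-catenin pair none of its spots was well-measured, and on the HEK293T arrays 6 to 10 of the 10 were. BCL9 was marked well above background in the sample channel on all 6 HEK293T arrays, where its level lay between 0.90 and 1.5, and on 2 of the 4 Ls174T reference arrays.

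Wnt3A for 9 h in HEK293T cells called none of the 13 member probes tested, beside 6.54% of 27053 probes past 1.5-fold. CTNNB1 rested at levels of 0.07 and −0.13 on its 2 probes in CM and stood at 0.34 and 0.23 in Wnt3A, differences of 0.27 ± 0.29 and 0.36 ± 0.29. Both probes were higher in Wnt3A by about their program error without reaching the fold, and with normexp background correction and loess in place of the program's ratios both came to −0.01, or to 0.26 and 0.28 once local backgrounds that the program marks as outliers were replaced by the array's median background. BCL9L had the largest difference among the members, from −0.46 to 0.02, which is 0.48 ± 0.31, but −0.16 with normexp and loess, 0.26 with the background outliers replaced as well, and 0.86 in the sample channel alone, scaled to its 75th percentile. AXIN1 differed by 0.29 ± 0.31, and APC, over 9 spots, by −0.34 ± 0.38, which turned to 0.41 with normexp and loess and was −0.17 with the background outliers replaced. JUP was 0.12 in CM and 0.03 in Wnt3A, a difference of −0.09 ± 0.29. GSK3B, the 3 CSNK1A1 probes, the 2 BTRC probes, and PYGO2 differed by −0.09 to 0.19. With normexp and loess GSK3B came to −0.57 and BTRC on A_23_P35427 to 0.57, and with the background outliers replaced to 0.07 and −0.025. BTRC on A_23_P46819 was −0.61 in the sample channel alone. The Wnt3A si-control array lay alone on its slide, and every comparison in this line uses it, so slide and Wnt3A cannot be told apart.

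**Figure D2:**
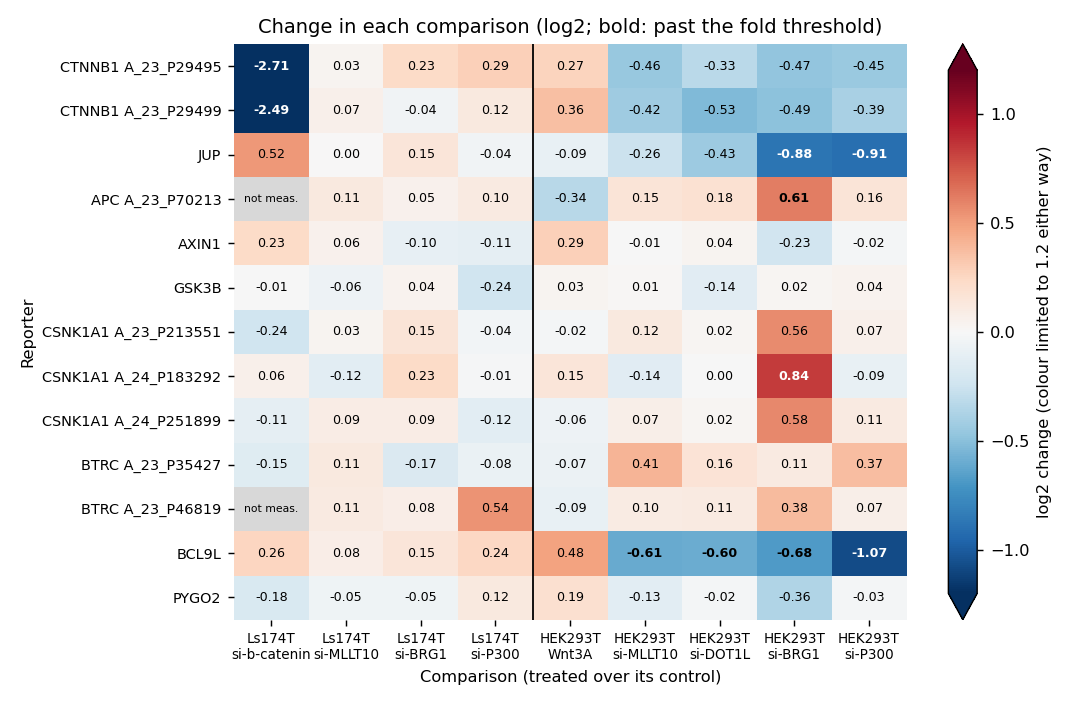
Log2 change of each member probe (rows) in each of the 9 comparisons (columns; Ls174T left and HEK293T right of the line), with red for higher and blue for lower than the control, bold values past the threshold (2-fold in Ls174T, 1.5-fold in HEK293T), and grey where the probe was not well-measured. CTNNB1 is the only gene with bold values in Ls174T, and in HEK293T the BCL9L row has 4 bold values and the JUP row 2.

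Depletion of the 4 coactivators in Wnt3A-treated HEK293T cells called between 1 and 4 of 13 member probes. The counts were 1 after MLLT10/AF10 beside 7.32% of 26358 probes, 1 after DOT1L beside 5.62% of 26815, 4 after BRG1 beside 22.0% of 26115, and 2 after p300 beside 12.1% of 25872. These comparisons share the Wnt3A si-control array, so a value that is high or low on that array enters all 4, and the changes are given side by side without being counted as 4 observations. The median change of the members was −0.01 after MLLT10/AF10, 0.00 after DOT1L, 0.02 after BRG1, and −0.02 after p300, beside 0.00, 0.00, 0.02, and 0.01 over all probes.

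BCL9L was lower past 1.5-fold in all 4. Its level was 0.02 with si-control in Wnt3A, −0.58 with si-MLLT10, −0.57 with si-DOT1L, −0.65 with si-BRG1, and −1.05 with si-P300. The changes were −0.61 ± 0.33, −0.60 ± 0.32, −0.68 ± 0.32, and −1.07 ± 0.34. The Wnt3A si-control array was above the other 5, and among them the si-P300 array was the lowest. The changes after MLLT10/AF10 and DOT1L depletion were 1.52-fold and 1.51-fold, just past the threshold and under 2 times their error. Against the CM array, which lies on their own slide, they were −0.12 ± 0.33 and −0.11 ± 0.33. The BRG1 and p300 values against that array were −0.19 ± 0.33 and −0.584 ± 0.35. None of the 4 passed the fold with CM as the control, but the p300 value lay almost on the threshold of 0.585. With normexp and loess the 4 values were −0.31, −0.11, 0.08, and −0.26, and with the background outliers replaced −0.32, −0.11, −0.34, and −0.27, none past the fold. The probe was dim in this line, with a sample signal of 1.63 to 2.22 times local background.

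JUP was called after 2 of the 4 depletions. Its level was 0.12 in CM, 0.03 in Wnt3A, −0.23 with si-MLLT10, −0.40 with si-DOT1L, −0.84 with si-BRG1, and −0.87 with si-P300. The BRG1 and p300 arrays were below the other 4, with changes of −0.88 ± 0.30 and −0.91 ± 0.30, or 1.84-fold and 1.88-fold lower. The changes after MLLT10/AF10 and DOT1L, −0.26 ± 0.29 and −0.43 ± 0.29, missed the threshold. Against the CM array in place of the Wnt3A control, the BRG1 and p300 values were −0.97 ± 0.30 and −1.0 ± 0.30, as large as before. The 2 low arrays lay on 1 slide together, with an Ls174T pair, so slide and depletion cannot be told apart for JUP.

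CTNNB1 was lower in all 4 depletions without reaching 1.5-fold on either probe. In the order MLLT10/AF10, DOT1L, BRG1, and p300, the level on A_23_P29495 was −0.12, 0.01, −0.13, and −0.11, and the changes were −0.46, −0.33, −0.47, and −0.45, each ± 0.29. On A_23_P29499 the levels were −0.19, −0.30, −0.26, and −0.16, and the changes −0.42, −0.53, −0.49, and −0.39, each ± 0.29. The 4 depleted arrays differed from each other by less than these changes and lay near the CM array, whose levels were 0.07 and −0.13. The 1 array that stood above the others on both probes was the shared Wnt3A control. The plot of the 4 genes in HEK293T shows this beside the pattern of JUP and CSNK1A1, where the Wnt3A control was not apart from CM.

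**Figure D3:**
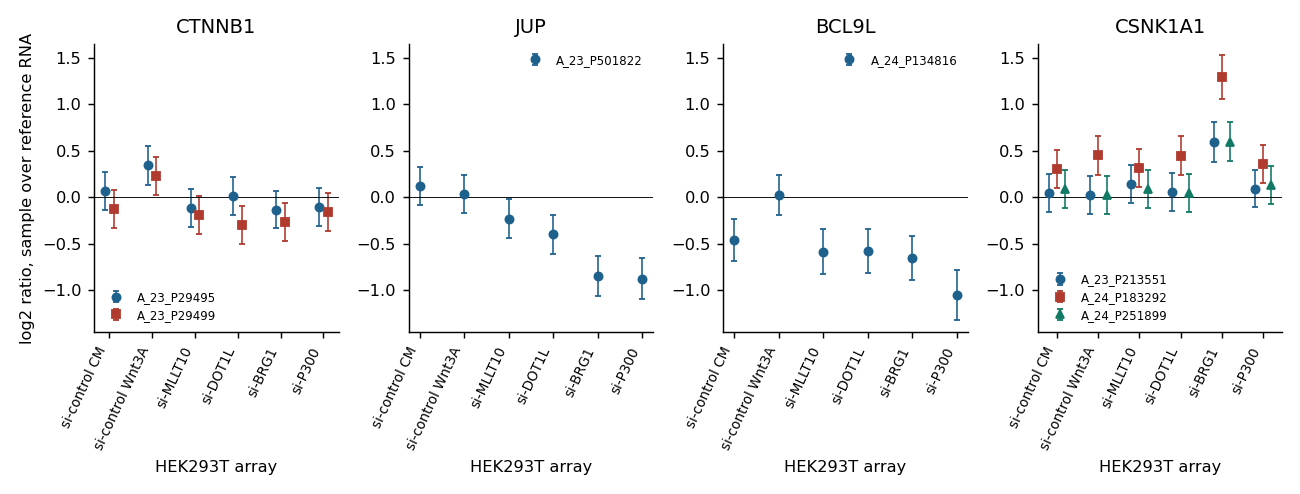
Log2 ratio of sample over reference RNA (y axis) on the 6 HEK293T arrays (x axis) for CTNNB1, JUP, BCL9L, and CSNK1A1, one marker per probe, with bars for the program error. The si-control Wnt3A array is the highest for CTNNB1 and BCL9L, JUP is lowest on the si-BRG1 and si-P300 arrays at −0.84 and −0.87, and the 3 CSNK1A1 probes are highest on the si-BRG1 array.

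CSNK1A1, the kinase that primes β-catenin for GSK3B, was higher after BRG1 depletion on all 3 of its probes. On A_24_P183292 the level was 0.30 in CM, 0.45 in Wnt3A, 0.32 with si-MLLT10, 0.45 with si-DOT1L, 1.29 with si-BRG1, and 0.36 with si-P300, a change of 0.84 ± 0.32 after BRG1. The other 2 probes changed by 0.56 ± 0.29 and 0.58 ± 0.29, or 1.48-fold and 1.49-fold, just short of the threshold and not called. After the other 3 depletions the 3 probes lay between −0.14 and 0.12. Against the p300 array of the same slide, the BRG1 array was higher by 0.50, 0.93, and 0.47. In Ls174T the 3 probes changed by 0.15, 0.23, and 0.09 after BRG1, none past its error.

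APC, the scaffold that is mutated in most colorectal cancers, was called higher after BRG1 depletion by 0.61 ± 0.39 over 9 spots, whose SD was 0.28, and this was 1.53-fold and under 2 times its error. With normexp and loess it was −0.28, and 0.34 with the background outliers replaced, neither past the fold. The levels over its spots were 1.45 in CM, 1.1 in Wnt3A, and 1.72 with si-BRG1, so that the BRG1 array was the highest and the Wnt3A control the lowest of the 6. Against the CM array the BRG1 value was 0.27 ± 0.38. AXIN1, GSK3B, BTRC, and PYGO2 gave 20 values over the 4 depletions, none of them called and all between −0.36 and 0.41. The lowest was PYGO2 after BRG1 depletion and the highest BTRC on A_23_P35427 after MLLT10/AF10 depletion. GSK3B was the steadiest over its 9 spots, between −0.14 and 0.04.

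Levels were also compared between the cell lines. Of 13 member probes well-measured on all 10 reference arrays, 7 had ratios on the 4 Ls174T arrays that did not overlap with those on the 6 HEK293T arrays, 6 of them higher and 1 lower in Ls174T. Over all 24059 such probes 57.3% did not overlap, so the share among the members was near that of the array as a whole. The arrays of a line differ in siRNA and medium and are not replicates of it.

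The 2 CTNNB1 probes gave very different contrasts between the lines. On A_23_P29499 the 4 Ls174T arrays lay between 2.04 and 2.19 and the 6 HEK293T arrays between −0.30 and 0.23, with means of 2.11 ± 0.07 (SD, 4 arrays) and −0.13 ± 0.19 (SD, 6 arrays). On A_23_P29495 they lay between 0.58 and 0.86 and between −0.13 and 0.34, with means of 0.71 ± 0.14 (SD, 4 arrays) and 0.01 ± 0.18 (SD, 6 arrays). The difference between lines was 2.25 on one probe and 0.70 on the other, although both saw a like loss after si-b-catenin and differed little from each other within HEK293T. The sample channel alone gave 2.50 and 0.94. In the order of the 10 levels of A_23_P29499, the 4 Ls174T arrays came first, and the gap of 1.81 ± 0.35 below them was the only step between neighbours beyond 2 times its error, whereas on A_23_P29495 no step between neighbours was.

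**Figure D4:**
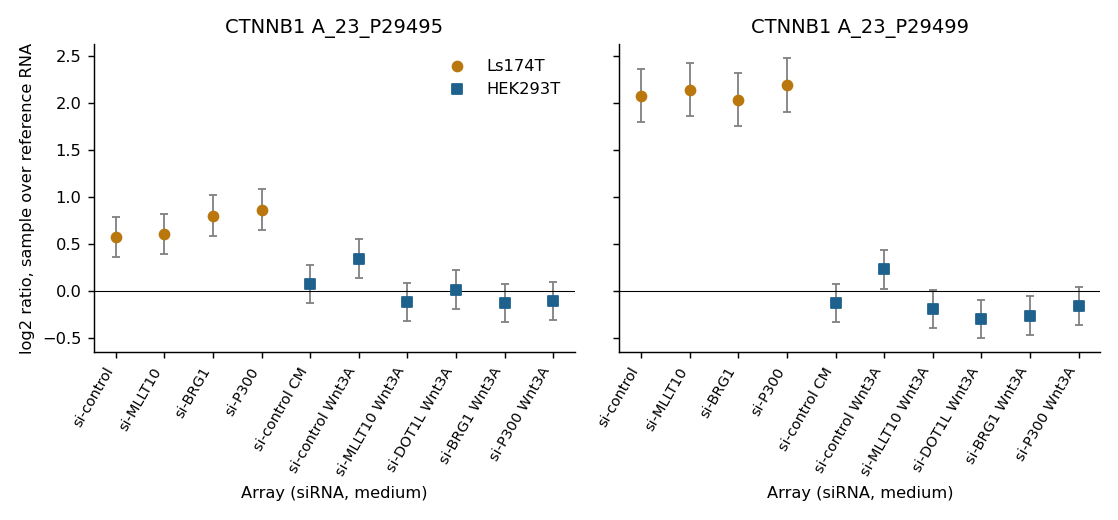
Log2 ratio of sample over reference RNA (y axis) for the 2 CTNNB1 probes (left and right) on the 10 reference arrays (x axis), with circles for Ls174T, squares for HEK293T, and bars for the program error. The Ls174T arrays lie between 0.58 and 0.86 on the left and between 2.04 and 2.19 on the right, and the HEK293T arrays lie near 0 on both.

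JUP, BCL9L, and GSK3B were also higher in Ls174T, by a step beyond 2 times its error. JUP had a lowest, median, and highest level of 0.83, 0.88, and 1.02 on the Ls174T arrays and −0.87, −0.31, and 0.12 on the HEK293T arrays. BCL9L had 0.69, 0.80, and 0.93 against −1.05, −0.58, and 0.02. GSK3B, the kinase that marks β-catenin for destruction, had 0.17, 0.38, and 0.45 against −0.81, −0.66, and −0.63, with the narrowest spread within HEK293T of the 3. The si-control Ls174T array and the HEK293T CM array, which had no Wnt3A and no depletion, differed by 0.75 for JUP, 1.15 for BCL9L, and 1.11 for GSK3B. Over all 15 probes, 4 of 135 steps between neighbouring levels were beyond 2 times their error, and each was the step between the lines, for A_23_P29499, JUP, GSK3B, and BCL9L. Such steps were not counted over the whole array, where 57.3% of probes did not overlap between the lines, so the count is not a trait of the members.

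AXIN1 was higher in Ls174T by a narrow margin, between 0.96 and 1.13 against 0.62 and 0.94, and the ranges overlapped with normexp and loess, with median centring, and in the sample channel alone. BTRC on A_23_P46819 was the member lower in Ls174T, between −0.17 and 0.37 against 0.55 and 0.92, while on A_23_P35427 it overlapped, with means of 1.29 in Ls174T and 1.33 in HEK293T. APC on A_23_P70213 also overlapped, with means of 1.35 and 1.30 over the spots well-measured on every reference array. Over all its spots that were not outliers the APC means were 1.19 and 1.35, the other way round. PYGO2 overlapped too, with 0.54 and 0.66. The 3 CSNK1A1 probes overlapped through the si-BRG1 array of HEK293T alone, which lay within the Ls174T range on 2 of them and, at 1.29, above its highest value of 0.83 on A_24_P183292. The plot of the levels on the reference arrays shows which probes separate the lines.

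**Figure D5:**
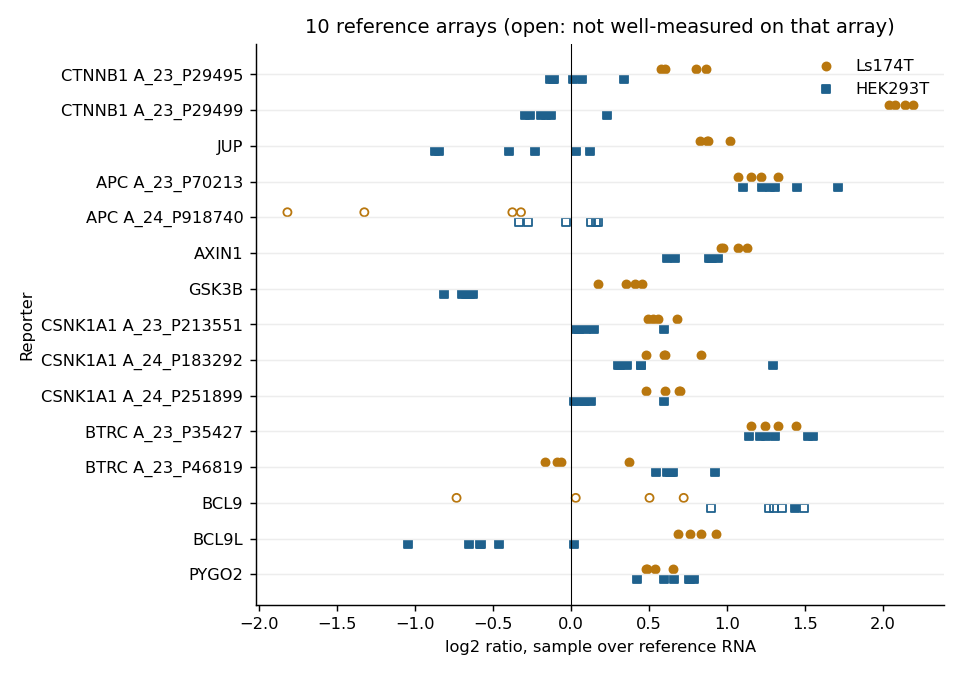
Log2 ratio of sample over reference RNA (x axis) for the 15 member probes (y axis) on the 10 reference arrays, with circles for Ls174T and squares for HEK293T, open where the probe was not well-measured on that array. Among the probes well-measured on every array, the lines separate for both CTNNB1 probes, JUP, AXIN1, GSK3B, BCL9L, and 1 BTRC probe. BCL9 also lies apart, lower in Ls174T, but all its symbols except that of HEK293T CM are open. The open symbols of APC A_24_P918740 and BCL9 show why these 2 probes entered no comparison.

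The genes whose levels followed CTNNB1 most closely over the 10 reference arrays, after the mean of each line was taken off, were USP21, a deubiquitinase, with a Pearson correlation of 0.96, and PTK2B, a focal adhesion kinase relative, with 0.92. SRRT followed with 0.92, CYP2W1 with 0.91, and USF1, a transcription factor, with 0.91. These are descriptions over 10 points that share the reference RNA, and 7 of 12075 genes had a correlation of at least 0.90. On the Wnt3A si-control array CTNNB1 stood 0.35 above the mean of its line, and these 5 genes stood 0.40, 0.49, 0.43, 1.31, and 0.51 above theirs, the highest value of each. Among the members, the correlation was 0.84 for BCL9L, which was rank 38 of all genes, 0.59 for JUP, and −0.47 for APC.

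Around the members, 60 further genes of the pathway and of the junctions were listed, 58 of them on the array with 102 probes. Of 72 probes tested after si-b-catenin, 4 were past 2-fold, all lower, a share close to the 5.66% of the whole array, where 740 probes were higher and 194 lower. AXIN2, the AXIN1 paralog and feedback inhibitor that Wnt signaling induces, changed by −1.97 ± 0.19, and LEF1, a TCF family factor, by −1.46 ± 0.18. AMER1, a membrane partner of APC, changed by −1.24 ± 0.20. TCF7, another TCF factor, changed by −1.25 ± 0.19; it was not well above background on both arrays and is named here because the count is small.

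AXIN2 thus moved where its paralog AXIN1 did not. In HEK293T Wnt3A raised AXIN2 by 1.08 ± 0.30, and the probe was lower by 0.81 ± 0.29 after BRG1 and by 0.63 ± 0.29 after p300 depletion. After Wnt3A, 5 of 91 listed probes were past 1.5-fold beside 6.54% of the array, AXIN2 among them. TCF7 at 0.82 ± 0.37 and the cadherin CDH3 at 0.64 ± 0.36 were higher. TBL1XR1, a corepressor subunit, at −0.64 ± 0.29 and TCF7L1 at −0.59 ± 0.30 were lower. CDH3 and TCF7L1 were under 2 times their error. After MLLT10/AF10 and DOT1L depletion 1 of 88 and 1 of 91 were past 1.5-fold, beside 7.32% and 5.62%. These were TBL1XR1 at −0.59 ± 0.31, under 2 times its error, and CTBP2, a corepressor, at 0.65 ± 0.30. This TBL1XR1 probe was not the one called after Wnt3A, which changed by 0.60 ± 0.29 after BRG1 depletion. After p300 depletion 4 of 89 were past 1.5-fold, beside 12.1%, AXIN2 among them. The others were the mediator subunit MED12 at −1.15 ± 0.31, CTBP2 at 0.60 ± 0.30, and the desmosomal cadherin DSC2 at 0.65 ± 0.46. DSC2 was under 2 times its error.

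BRG1 depletion in HEK293T called 19 of 89 listed probes, 8 higher and 11 lower, a share close to the 22.0% of the whole array. Junction partners made up 6 of them, out of 14 junction probes tested. Among these were DSC2 at 1.5 ± 0.51, CDH3 at −0.99 ± 0.37, and VCL, which encodes vinculin, at −0.84 ± 0.29 on 1 of its probes. A further VCL probe at −0.60 ± 0.32 and PKP3 at −0.71 ± 0.69 were called but under 2 times their error, and are named for that. Of the destruction complex partners, the phosphatase subunit PPP2R5A was higher on 3 probes, with 0.95 ± 0.33 on the highest, and CSNK1E, a further casein kinase, changed by −0.79 ± 0.38. TCF7 changed by −1.0 ± 0.38 and the Wnt coreceptor LRP5 by −0.77 ± 0.29. In Ls174T, where the threshold was 2-fold, none of 91 listed probes was called after MLLT10/AF10 or after BRG1 depletion, beside 1.75% and 5.21% of the array, and 1 of 93 after p300, beside 5.76%. This was TCF7L1 at −1.30 ± 0.85, which was not well above background and is named because it was the single one. The counts of the 2 lines rest on different thresholds and were not compared.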

How the data were processed

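Two-color Agilent 4x44K whole human genome arrays were used as deposited. The authors scanned the arrays and ran Agilent Feature Extraction, version 10.5.1.1 per the file headers and 8.5.1.1 per the submitters' processing notes, which gave background-subtracted, dye-normalized intensity values and a log10 ratio of Cy5 over Cy3 with its error. The deposited table of log10 ratio values is the same data, within 1.5e-05 on the log2 scale once the exchanged array is turned. Here each log10 ratio was turned to log2 of sample over reference or control, spots flagged as outliers (84 to 179 an array) were left out, and spots of a probe were averaged, with the mean of their errors. With 1 RNA sample per condition nothing was tested; the 2 arrays of the β-catenin pair count as 1 replicate. Changes were read against 2-fold or 1.5-fold over all probes. RefSeq accessions were named through the GRCh38.p14 gene table (94.9% of 29084 spots). Every member probe was reported. Of each further list, up to 3 probes per comparison furthest past the fold and well above background were named, with the 5 genes closest to CTNNB1. Alternatives were limma 3.58.1 normexp (offset 50) with loess in R 4.3.3, the sample channel alone, median centring, other filters, other folds, and other control arrays. The members and lists were chosen with earlier results of these data known. The code was tested on simulated data.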

Additional observations from a re-analysis of the deposited data

Results flagged for a closer look

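JUP after BRG1 depletion and BCL9L after p300 depletion were lower past 1.5-fold in HEK293T and slightly above their control, within their error, in Ls174T, and the values of the 2 lines differed by more than 2 times the program error of the difference. The difference was not tested, since each line has 1 array per condition. After BRG1 depletion JUP had a value of 0.15 ± 0.31 in Ls174T and −0.88 ± 0.30 in HEK293T, a difference of 1.02 ± 0.43. After p300 depletion BCL9L had 0.24 ± 0.32 in Ls174T and −1.07 ± 0.34 in HEK293T, a difference of 1.31 ± 0.47. This HEK293T value was −0.584 ± 0.35 against the CM array and −0.44 against the other 3 knockdown arrays. JUP differed after p300 depletion as well, with −0.045 ± 0.31 in Ls174T and −0.91 ± 0.30 in HEK293T. That difference was 0.86 ± 0.43, about 2 times its error. The siRNA targets themselves fell less in Ls174T. EP300 gave −0.60 ± 0.48 and −1.31 ± 0.40 there, and −2.35 ± 0.35 and −2.98 ± 0.44 in HEK293T. Of these EP300 values only −2.35 was well above background in the depleted cells. SMARCA4 gave −2.53 to −2.24 in Ls174T and −4.00 to −3.95 in HEK293T. Whether this bears on the differences between the lines was not tested. With normexp and loess BCL9L was at −0.17 in Ls174T and −0.26 in HEK293T, and with background outliers replaced as well at 0.12 and −0.27. With each array centred on its median the JUP change in Ls174T was 0.00.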

How the results depend on the processing

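The 2 CTNNB1 calls after si-b-catenin held under all 9 alternatives, with −2.86 to −2.48 on A_23_P29495 and −2.60 to −1.92 on A_23_P29499, and the counts for the MLLT10/AF10 and p300 depletions in Ls174T stayed at 0. Without a filter on signal the BRG1 count in Ls174T was 1, the dim APC probe A_24_P918740. With the sample channel alone the Wnt3A count was 2 and the HEK293T BRG1 count 7. In HEK293T, the MLLT10/AF10 and DOT1L counts became 0 with normexp and loess, with the same after replacing background outliers (chosen after seeing the data), with both channels over background, at 2-fold, against the mean of the other 3 knockdown arrays, and against the control medium array. The BRG1 count became 2 with background outliers replaced and with both channels over background, 0 at 2-fold, and 1 against the other knockdowns. The p300 count became 1 under both normexp settings, with both channels over background, and at 2-fold, and 0 against the other knockdowns. BCL9L reversed against the other 3 knockdown arrays to 0.17 after MLLT10/AF10, 0.19 after DOT1L, and 0.083 after BRG1 depletion, and the cause was not tested. With normexp and loess it reversed to 0.078 after BRG1, where APC reversed to −0.28. With background outliers replaced in the same correction these were −0.34 and 0.34, of the main sign. JUP kept its sign after BRG1 and p300 depletion under all 9 alternatives, between −0.91 and −0.34 and between −0.96 and −0.38, the weakest against the other knockdowns. The count of probes that did not overlap between the lines stayed between 6 and 8. No paired analysis was possible because each condition had 1 RNA sample. Dim probes limit BCL9, BCL9L, and APC, and array error says nothing about the spread between cultures.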
